A study of Homo sapiens with 6 samples.

Results

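The colony-stimulating factors are 3 secreted growth factors of blood cells, encoded by CSF1, CSF2 and CSF3. Each was taken as the row of the deposited gene table that carries its symbol. The 3 rows are among 58219 genes, and no member's symbol was repeated. RNA was measured in IMR90 cells, normal diploid human fibroblasts from lung, that express ER-RAS. In this construct an oncogenic RAS protein, named with the change G12V in the study's design text, is joined to the hormone-binding portion of the oestrogen receptor, and 4-hydroxytamoxifen (4OHT) switches it on. One group had 100 nM 4OHT for 72 h and is labelled committed (3 libraries, replicates A, B and C). The other had 100 nM 4OHT for 30 h and is labelled as the uncommitted control (3 libraries, replicates A, B and C). The titles give these times as 3 days and 1.5 days. For the shorter treatment, 1.5 days and 30 h are not the same time, and the text keeps to hours, as in the names of the table's columns. Both groups carry the construct and both received 4OHT, and the samples hold no untreated group. Commitment and time under RAS signalling therefore cannot be told apart. The labels do not say how the construct was delivered, whether the cells are 1 clone, or whether replicates were separate cultures, and a p-value here covers only the variation among these libraries, some or all of it perhaps technical.

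Each colony-stimulating factor acts on myeloid cells through a receptor of its own. CSF1 encodes M-CSF, which binds the receptor tyrosine kinase CSF1R and keeps monocytes and macrophages alive. CSF2 encodes GM-CSF, which binds a receptor made of CSF2RA and the shared chain CSF2RB and acts on granulocytes, macrophages and dendritic cells. CSF3 encodes G-CSF, which binds CSF3R and drives the production and release of neutrophils. In fibroblasts, CSF2 and CSF3 are classical targets of interleukin 1 and NF-kB. Their messenger RNAs carry AU-rich elements, repeats of the pentamer ATTTA, written as in DNA, in the 3' untranslated region, where proteins bind that speed or slow decay. GM-CSF and G-CSF are also known as products of the senescence-associated secretory phenotype.

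The libraries held 13221152 to 15703544 reads assigned to genes, and 3 reads in a library stand for 0.191 to 0.227 RPM (reads per 1000000 reads assigned to genes). Mitochondrial genes took 4.23% to 4.83% of reads at 72 h, against 3.56% to 4.06% at 30 h. All 11 fibroblast markers, among them VIM and COL1A1, passed the filter on low values. Their summed level was 95461 to 104939 normalised counts at 72 h, against 262555 to 298647 at 30 h, and the part of either measure in the results was not tested. The macrophage markers AIF1 and C1QA, the T cell markers CD2, CD3D, CD3E and CD3G and the endothelial marker CDH5 had no read in any library. TRAC, the remaining T cell marker, had reads in every library, with 2.62 to 5.24 normalised counts at 72 h, against 7.11 to 10.5 at 30 h. The endothelial markers together had 29.6 to 51.4 normalised counts at 72 h, against 11.7 to 19.0 at 30 h, and the epithelial markers had 570.2 to 681 at 72 h, against 723 to 822 at 30 h. KRT19, one of the epithelial markers, had 40 reads in 72 h replicate B and 43 in 30 h replicate B, against 1 to 5 in each other library. Replicate C stood apart in both groups, with a chi-square per degree of freedom against A and B of 11.6 to 16.3, where A and B differed by 4.16 at 72 h and 3.34 at 30 h. In such bulk RNA a change in the number of cells that make a transcript and a change of RNA per cell cannot be told apart.

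The AU-rich stretch of each messenger RNA is shown because the members differ in it. It was taken as the 30 bases with the most ATTTA pentamers in the longest annotated 3' untranslated region (GENCODE 29, GRCh38, plus strand), and capitals mark the pentamers. The CSF3 stretch lies at chr17:40016983-40017012, that of CSF2 at chr5:132076081-132076110 and that of CSF1 at chr1:109930924-109930953.
CSF3: ATTTAtctctATTTAatATTTAtgtctatt
CSF2: ATTTATTTATTTATTTATTTAagttcatat
CSF1: ATTTAaatatctATTTAaaagataggaagc
The CSF2 stretch holds 5 pentamers that share their outer bases in 1 unbroken run, and only 0.211% of 18924 protein-coding genes have a 30-base stretch with as many. The CSF3 stretch holds 3 separate pentamers, a number reached by 2.97% of the genes, and the CSF1 stretch holds 2, a number reached by 22.7%. Over the whole 3' untranslated region, CSF3 has 7 pentamers in 854 bases, CSF2 has 8 in 318 bases and CSF1 has 4 in 2154 bases.

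The promoter of CSF2, the member with an entry in the RefSeq promoter table (GRCh38.p14), is shown for the element it is known for. The 250 bases before the transcript start, at chr5:132073539-132073788 on the plus strand, read as follows, with matches to the searched motifs in capitals.
CSF2: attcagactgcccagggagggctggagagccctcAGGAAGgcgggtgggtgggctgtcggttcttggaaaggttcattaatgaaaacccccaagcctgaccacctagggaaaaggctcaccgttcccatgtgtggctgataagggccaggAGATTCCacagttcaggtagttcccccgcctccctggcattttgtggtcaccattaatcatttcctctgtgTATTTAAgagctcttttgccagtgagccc
Both strands were searched for the core AGATTCC of the cytokine element CK-1, the ETS core AGGAAG, the AP-1 motif TGANTCA, the C/EBP motif TTNNGNAA, the TATA box TATAAA and the kB consensus. The CK-1 core starts 100 bases before the transcript start and is present in 2.85% of 35116 promoter windows of the same length. The ETS core starts at base -216, and 28.7% of the windows hold it. The other 4 motifs had no match in these 250 bases, where 6.57% of windows hold the AP-1 motif, 33.2% the C/EBP motif, 10.7% the TATA box and 5.21% the kB consensus. Only exact matches were counted, so a site that departs at any base from a motif, such as the 10-base kB consensus, is not marked. The lack of a match therefore does not show that a site is absent. A run of TATTTAA at base -29, added to the search after the sequence had been read, is present in 4.17% of windows. These are matches of letters and not measured binding.

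CSF3 and CSF2 transcripts rose strongly at 72 h, while CSF1 transcripts did not rise. All 3 members passed the filter on low values (3 or more libraries at 10 normalised counts or above), and 2 of them rose at a Benjamini-Hochberg adjusted p under 0.05 in limma. Among all 13315 genes tested, 48.6% were called by that rule, 23.6% rose, 25.0% fell, and 5.15% rose by at least 2-fold, as both members did. For those 2 members every library of 72 h lay above every library of 30 h, which was so for 29.3% of all genes tested. The reverse order held for 29.9%, and either order for 59.2%. By the size of the rise CSF3 was number 4 and CSF2 number 48 of the genes tested.

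**Figure D1:**
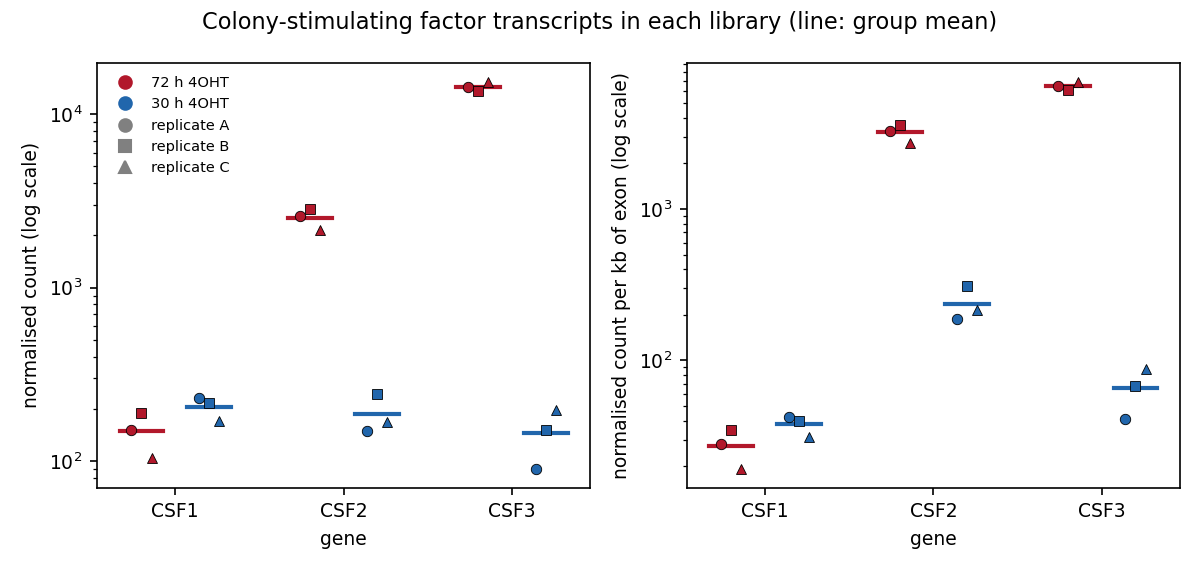
Normalised counts (left) and normalised counts per kilobase of exon (right) of the colony-stimulating factors on log axes, in the 3 libraries of 72 h (red) and the 3 of 30 h (blue). Symbols are replicates A, B and C and lines are group means. CSF3 and CSF2 sit far above their 30 h values at 72 h, and the CSF1 groups overlap.

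CSF3, the gene of G-CSF (ENSG00000108342.12, GRCh38 chromosome 17, 40015361 to 40017813), had the largest change of the 3 members. It had 14310.3, 13598 and 15226 normalised counts in replicates A, B and C at 72 h, against 90.7, 150.4 and 196 at 30 h. The libraries of 72 h lay close together and far above every library of 30 h, among which replicate A was the lowest and replicate C the highest. CSF3 took 993 to 1096 RPM at 72 h, against 6.60 to 14.1 at 30 h. By normalised count it was gene number 84 to 99 of its library at 72 h, and number 8200 to 9753 at 30 h. The log2 fold change was 6.68 ± 0.29 (SE, n = 3 per group), a 103-fold rise, with a limma adjusted p of 3.61e-05. Leaving out each library in turn gave log2 fold changes of 6.38, without 30 h replicate A, to 6.93, without 30 h replicate C.

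CSF2, the gene of GM-CSF (ENSG00000164400.5, chromosome 5, 132073790 to 132076170), had 2588, 2836 and 2141 normalised counts in replicates A, B and C at 72 h. At 30 h it had 148, 244 and 169. Replicate B was the highest library in both groups, and the groups lay far apart. In reads, these values are 2533, 3253 and 2041 at 72 h and 152, 240 and 160 at 30 h. The log2 fold change was 3.77 ± 0.20 (SE, n = 3 per group), a 13.6-fold rise, with a limma adjusted p of 3.3e-05. It was gene number 864 to 1229 of its library at 72 h and number 7616 to 8824 at 30 h.

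CSF1, the gene of M-CSF (ENSG00000184371.13, chromosome 1, 109910242 to 109930992), had 151, 188 and 105 normalised counts in replicates A, B and C at 72 h, against 231, 216 and 169.8 at 30 h. Replicate C was the lowest library in both groups, and replicate B of 72 h lay above replicate C of 30 h. The log2 fold change was -0.50 ± 0.22 (SE, n = 3 per group), with a limma adjusted p of 0.0908. In the authors' deposited table it was -0.47 with an adjusted p of 0.0909. The value rested on single libraries. With 72 h replicate B left out it was -0.69 (limma adjusted p = 0.0194), and with 72 h replicate C left out it was -0.27 (limma adjusted p = 0.183). The call was also made with no filter on low values (limma adjusted p = 0.00117) and without both libraries of letter C, at -0.40 (limma adjusted p = 0.0108). A fit to all 6 libraries with the replicate letter as a block made it too, at -0.50 (limma adjusted p = 0.00877).

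The order of the members changed between the groups when levels were set per length. The annotated exons cover 2220 bases in CSF3, 787 in CSF2 and 5418 in CSF1, with all alternative exons counted, which lowers the level per kilobase of a gene with many of them. At 72 h CSF3 had 6477 ± 368 normalised counts per kilobase, CSF2 had 3204 ± 448 and CSF1 had 27.3 ± 7.72 (SD, n = 3), and no library of one gene overlapped those of the next. At 30 h CSF2 came first with 237 ± 64.0 per kilobase, followed by CSF3 with 65.6 ± 23.8 and CSF1 with 38.0 ± 5.90 (SD, n = 3). There the libraries of CSF3 and CSF1 overlapped, while those of CSF2 lay above both.

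As shares of the summed level per kilobase of the 3 members, CSF3 made up 62.7% to 71.5% in libraries of 72 h, against 15.0% to 26.4% in those of 30 h. The share of CSF2 was 28.3% to 36.9% at 72 h, against 64.2% to 74.2% at 30 h. CSF1 held 0.202% to 0.356% at 72 h, against 9.38% to 15.7% at 30 h. The 3 genes together took 1214 to 1257 RPM at 72 h, against 34.2 to 44.0 at 30 h.

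The members also differed in the size of their change within each library. The log2 ratio of CSF3 to CSF2 was 2.26 to 2.83 in the libraries of 72 h, against -0.70 to 0.22 in those of 30 h, a difference of 2.91. The ratio of CSF3 to CSF1 was 6.17 to 7.17 at 72 h, against -1.34 to 0.21 at 30 h (difference 7.18). That of CSF2 to CSF1 was 3.91 to 4.34 at 72 h, against -0.64 to 0.17 at 30 h (difference 4.27). No ratio overlapped between the groups. A two-sided exact permutation test gave p = 0.1 for each of the 3 ratios, also after adjustment over the 3, which is the smallest p that 3 against 3 libraries allow.

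Of the receptors, the one for M-CSF was detected and rose, while that for G-CSF had no read and the shared chain of the GM-CSF receptor had next to none. CSF1R had 51.1, 57.5 and 58.7 normalised counts in replicates A, B and C at 72 h and 9.75, 18.3 and 21.1 at 30 h, so the groups were apart at a low level. In reads over each group these were 172 at 72 h and 48 at 30 h. The log2 fold change was 1.77 ± 0.28 (SE, n = 3 per group), a 3.41-fold rise, with a limma adjusted p of 0.000638. The other 9 macrophage and monocyte markers summed to 24.5 to 25.3 normalised counts at 72 h, against 11.2 to 19.0 at 30 h, and their part in the result was not tested. None of those 9 passed the filter, and AIF1 and C1QA had no read. The most counted of the 9 differed in direction. FCER1G, a signalling chain of Fc receptors, had 8.39 to 12.3 normalised counts at 72 h, against 0.975 to 3.05 at 30 h, and CD68, a lysosomal marker of macrophages, had 3.15 to 5.11, against 0.975 to 3.05. CD14, a monocyte surface marker, had 3.07 to 7.34 at 72 h, against 4.06 to 12.7 at 30 h.

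CSF3R had no read in any of the 6 libraries, which allows up to 0.0360 RPM by a floor of 3 reads over all libraries. CSF2RA, the specific chain of the GM-CSF receptor, is listed at 0 throughout, but it lies in a pseudoautosomal region shared by X and Y. All 45 genes that the table lists on both chromosomes are at 0, so the level of CSF2RA could not be read from these files. CSF2RB, the chain shared by the receptors of GM-CSF, IL3 and IL5, had no read at 72 h and 4 reads at 30 h, all in replicate A. IL34, the second ligand of CSF1R, had 1 read at 72 h and no read at 30 h. Intervals and floors of this kind cover counting error only.

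**Figure D2:**
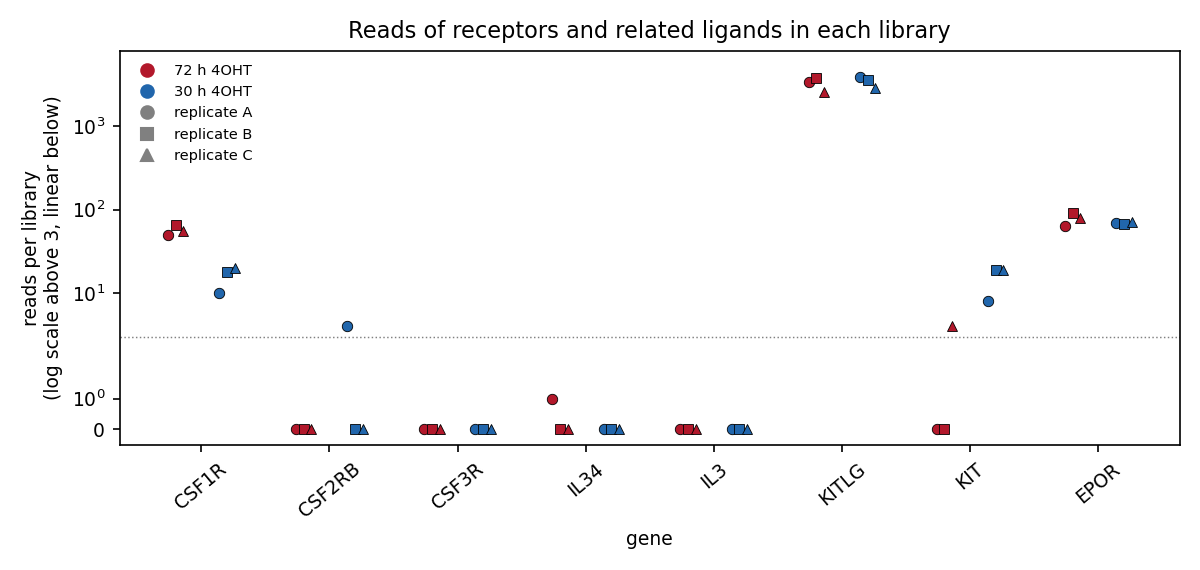
Reads per library (log scale above 3, linear below, dotted line at 3) of receptors of the colony-stimulating factors and of related blood growth factor genes, in libraries of 72 h (red) and 30 h (blue). CSF1R is detected in every library and higher at 72 h, CSF3R has no read, and KITLG is high in both groups.

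The wider list of blood cell growth factors and receptors mostly had too few reads to be tested. Of its 17 genes, 2 are pseudoautosomal, 7 others had no read and 3 were tested, of which CSF1R rose and 2 did not pass. KITLG, the gene of stem cell factor, had 3407, 3260 and 2684 normalised counts in replicates A, B and C at 72 h and 3806, 3656 and 2994 at 30 h, so its groups overlapped (log2 fold change -0.16, limma adjusted p = 0.299). Without both libraries of letter C, KITLG was called lower (limma adjusted p = 0.0115), and likewise with no filter on low values (limma adjusted p = 0.0433). EPOR, the erythropoietin receptor, had a log2 fold change of 0.09 with a limma adjusted p of 0.673. KIT, the receptor of stem cell factor, was below the filter with 0, 0 and 4 reads at 72 h and 8, 19 and 19 at 30 h.

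Genes of the signalling steps below these receptors were called in both directions. Of 22 listed genes 19 were tested. There were 5 that rose, 3 that fell and 11 below the threshold, and their median log2 fold change was 0.06, against 0.01 over all genes tested, of which 23.6% rose and 25.0% fell. SOCS2, an inhibitor of cytokine signalling that STAT5 induces, fell to 308 ± 28.9 normalised counts at 72 h, against 1139 ± 132 at 30 h (SD, n = 3 each). SOCS3, which restrains signalling of the G-CSF receptor, averaged 1763 ± 392 at 72 h and 606 ± 30.4 at 30 h (SD, n = 3 each). These inhibitors moved in opposite directions, with log2 fold changes of -1.88 and 1.52 and limma adjusted p of 7.55e-07 and 0.000198. LYN, a kinase of the SRC family used by myeloid receptors, rose 2.63-fold. JAK2 and TYK2, kinases of the JAK family that were picked for mention once their values were known, also fell, at log2 fold changes of -0.47 and -0.17. The call for JAK2 (limma adjusted p = 0.0252) was lost without any 1 of 5 libraries, all but 72 h replicate C, and that for TYK2 (limma adjusted p = 0.0473) without any 1 of 5, all but 72 h replicate A. The TYK2 call held under only 5 of the 19 alternatives and was lost in the authors' deposited table (adjusted p = 0.155). STAT5A rose 2.03-fold (limma adjusted p = 0.0107) at a low level, averaging 36.8 ± 10.6 at 72 h and 17.2 ± 2.62 at 30 h (SD, n = 3 each). PTPN11 rose 1.30-fold (limma adjusted p = 0.00031), and STAT5B did not pass. STAT5A, PTPN11 and STAT5B were also picked with their values known, and were not followed through the alternatives. Exons of SOCS2 overlap SOCS2-AS1 and those of PTPN11 overlap RPL6 on the opposite strand. The sources used here do not give the strand setting of the counting.

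Among cytokines known to induce CSF2 and CSF3, transcripts of interleukin 1 were present and higher at 72 h, while those of tumour necrosis factor were not detected. Of 21 listed ligands, receptors and adaptors 13 were tested. There were 6 that rose, 5 that fell and 2 below the threshold, where 23.6% of all genes tested rose and 25.0% fell, and their median log2 fold change was -0.13. IL1B had 80597, 79628 and 108361 normalised counts in replicates A, B and C at 72 h, against 1122, 2221 and 2800 at 30 h. IL1A had 1660, 1576 and 1138 at 72 h, against 80.9, 138 and 186 at 30 h. At 30 h replicate A was lowest and replicate C highest for both genes, as for CSF3. TNF, LTA and IL17A, the genes of tumour necrosis factor, lymphotoxin alpha and interleukin 17A, had no read in any library. The receptor genes TNFRSF1B and IL1R1 rose 6.53-fold and 2.09-fold. The 5 that fell, picked for mention with their values known, were IRAK4, IRAK1 and TRAF6, which carry the interleukin 1 signal, and the receptor genes IL17RA and TNFRSF1A. Their log2 fold changes were -0.76, -0.31, -0.37, -0.31 and -0.29. MYD88 and MAP3K7, which also carry the interleukin 1 signal, rose, at log2 fold changes of 0.27 and 0.18 (limma adjusted p = 0.0117 and 0.0243). They were picked in the same way, and their calls were not followed through the alternatives. The call for TRAF6 (limma adjusted p = 0.0274) was lost without any 1 of 5 libraries, all but 72 h replicate A, and the lost calls had limma adjusted p of 0.0549 to 0.093. In the authors' deposited table TRAF6 had an adjusted p of 0.0601. Without both libraries of letter A the calls for IRAK1 and IL17RA were lost, at limma adjusted p of 0.0801 and 0.076.

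Transcription factors described at the promoters and enhancers of these genes rose more often than they fell. Of 26 listed genes 24 were tested. There were 12 that rose, 3 that fell and 9 below the threshold, beside 23.6% of all genes that rose and 25.0% that fell. Their median log2 fold change was 0.29, against 0.01 over all genes tested. CEBPD, a C/EBP factor of the acute inflammatory response, averaged 219.6 ± 16.0 normalised counts at 72 h and 69.2 ± 11.4 at 30 h (SD, n = 3 each), a 3.16-fold rise (limma adjusted p = 1.54e-05). RELB and NFKB2, the partners of the alternative NF-kB pathway, rose 2.05-fold and 1.90-fold. NFKB1 and RELA, the subunits of classical NF-kB, had smaller rises of 1.44-fold and 1.17-fold, and CEBPB rose 1.69-fold. The 3 that fell were NFATC2, FOSL1 and RUNX1. Like NFKB1, RELA and CEBPB, FOSL1 and RUNX1 were picked for mention with their values known. NFATC2, a calcium-regulated factor that acts on CSF2 in T cells, averaged 58.5 ± 9.84 at 72 h and 154.7 ± 55.1 at 30 h (SD, n = 3 each). FOSL1, an AP-1 subunit downstream of ERK, and RUNX1, which binds the CSF2 promoter in T cells, had log2 fold changes of -0.63 and -0.21. Of the other listed AP-1 subunits, FOSB rose 1.89-fold, FOS 1.81-fold, FOSL2 1.63-fold, JUND 1.43-fold and JUN 1.23-fold, and JUNB did not pass. NFATC1 rose 1.80-fold with overlapping groups, and NFATC3 and NFATC4 did not pass. These too were picked with their values known, and their calls were not followed through the alternatives. The call for RUNX1 (limma adjusted p = 0.0178) was lost without 72 h replicate B, at 0.068. It was also lost without both libraries of letter A, at 0.0647, and of letter B, at 0.144. The call for RELA (limma adjusted p = 0.00434) was lost without both libraries of letter A, at 0.0692, and of letter B, at 0.0572. Exons of CEBPB overlap CEBPB-AS1 and those of RELA overlap AP001362.2 on the opposite strand.

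**Figure D3:**
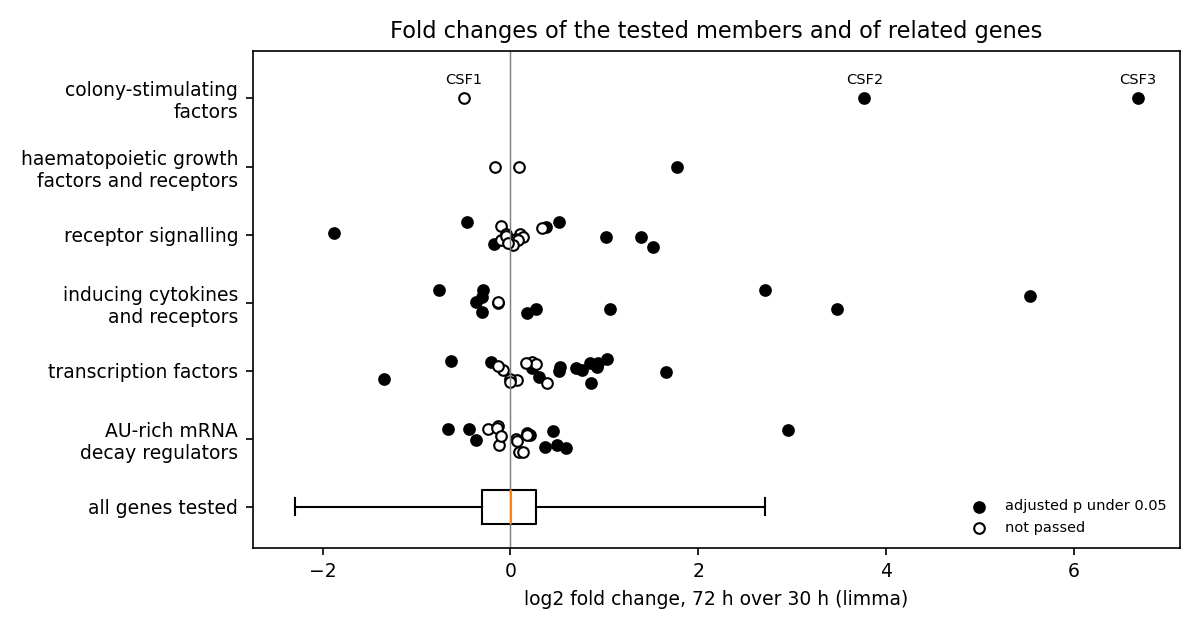
Log2 fold change of 72 h over 30 h for the colony-stimulating factors and the tested genes of 5 related lists (filled: limma adjusted p under 0.05, open: not passed, scattered vertically for visibility). The box spans the quartiles and the whiskers the 1st to 99th percentile of all 13315 genes tested. CSF3 lies beyond every listed gene and CSF2 beyond all but IL1B.

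Genes of proteins that act on AU-rich messenger RNAs were called about as often as all genes tested. All 20 listed genes were tested. There were 7 that rose, 3 that fell and 10 below the threshold, where 48.6% of all genes tested were called, 23.6% higher and 25.0% lower. Their median log2 fold change was 0.08. Without both libraries of letter C, 9 rose and 5 fell. ZC3H12A, the endonuclease Regnase-1 that cuts inflammatory messenger RNAs, had 2113, 2252 and 1702 normalised counts in replicates A, B and C at 72 h, against 198, 249 and 349 at 30 h. Its groups lay far apart, a 7.75-fold rise (limma adjusted p = 0.000171). RC3H1, the stem-loop binding protein roquin, and CNOT8, a deadenylase, rose 1.41-fold and 1.51-fold. ZFP36L1, a relative of tristetraprolin that promotes decay through AU-rich elements, averaged 1005 ± 49.9 at 72 h and 1596 ± 96.2 at 30 h (SD, n = 3 each), with a limma adjusted p of 3.3e-05. The others that fell, picked for mention with their values known, were ZFP36L2, of the same family, and HNRNPD, the AU-rich binding protein AUF1, at log2 fold changes of -0.44 and -0.36. ZFP36, the gene of tristetraprolin, picked in the same way, had 175, 155 and 149 normalised counts at 72 h and 177, 175 and 216 at 30 h, with a limma adjusted p of 0.124. Exons of ZC3H12A hold MIR6732, those of CNOT8 overlap FAXDC2 and those of HNRNPD overlap AC124016.1.

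No gene tested beside CSF3 passed the test for a rise in the main comparison, and no gene beside CSF2 had enough reads to be tested. Within 100 kb of CSF2 the deposited table holds 8 other genes, of which 7 had no read in any library. One of these was IL3, a blood cell growth factor whose gene ends 10.6 kb upstream of CSF2 and is co-regulated with it in T cells. Within 100 kb of CSF3 lie 13 others, of which 6 were tested, 0 rose and 2 fell (limma), where 23.6% of all genes tested rose. MED24, a Mediator subunit gene 1.28 kb downstream of CSF3, had 560, 646 and 622 normalised counts in replicates A, B and C at 72 h and 627, 539 and 639 at 30 h. Its groups overlapped, with a log2 fold change of 0.02 (limma adjusted p = 0.873) that was -0.024 without 72 h replicate B and -0.0572 without 30 h replicate B. PSMD3, a proteasome subunit 17.4 kb upstream, had a log2 fold change of 0.01 (limma adjusted p = 0.851), which was -0.00965 without 30 h replicate B and -0.00748 without 72 h replicate C. ORMDL3, a regulator of sphingolipid synthesis 87.8 kb upstream, was picked for mention with its values known. It had 511, 588 and 636 normalised counts in replicates A, B and C at 72 h, against 505, 497 and 480 at 30 h. Its groups did not overlap, with a log2 fold change of 0.22 that missed the threshold (limma adjusted p = 0.056) and passed it without 72 h replicate A, at 0.31 (limma adjusted p = 0.0164). ORMDL3 also passed with quantile normalization of all libraries, at 0.26 (limma adjusted p = 0.0257), and without both libraries of letter A, at 0.32 (limma adjusted p = 0.0481). GSDMB, a gasdermin gene, had a log2 fold change of -0.03 (limma adjusted p = 0.915). The 2 neighbours that fell were THRA, a thyroid hormone receptor, and NR1D1, the clock repressor REV-ERB alpha, at log2 fold changes of -0.35 and -0.45. The call for THRA (limma adjusted p = 0.0157) was lost without replicate A of either group, at 0.0666 without that of 72 h and 0.066 without that of 30 h. The 3' ends of THRA and NR1D1 overlap on opposite strands in GENCODE 29, so the split of reads between them is uncertain. Beside CSF1, 1 of 5 neighbours was tested, AHCYL1, at a log2 fold change of 0.05 (limma adjusted p = 0.492).

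The genes whose pattern over the 6 libraries was most like each member were found by the distance between profiles of log2 values with each gene's mean removed, among 10435 other protein-coding genes with a mean of at least 50. For CSF3 they were CCL20, a lymphocyte and dendritic cell chemokine (distance 0.64), CXCL2, a neutrophil chemokine (0.74), PTGES, a prostaglandin E synthase (1.01), and PI3, an elastase inhibitor (1.05). PI3 averaged 0 normalised counts at 30 h, so its distance depends on the 1 added before the logarithm. Its log2 fold change ran from 4.34 to 9.67 over the alternatives. For CSF2 they were CTSS, the lysosomal protease cathepsin S (0.50), RP1 (0.65), GCH1, the first enzyme of tetrahydrobiopterin synthesis (0.82), and FER1L6 (0.83). CTSS averaged 2634 ± 91.8 normalised counts at 72 h and 226 ± 28.2 at 30 h (SD, n = 3 each), a log2 fold change of 3.55. RP1 was low at 30 h, at 6.42 ± 3.26, against 118 ± 10.9 at 72 h (SD, n = 3 each).

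For CSF1 the nearest were WDHD1, a replication fork protein (0.12), CKS2, a subunit of cyclin-dependent kinases (0.17), FAS, a death receptor (0.18), and FEN1, the flap endonuclease of DNA replication (0.23). WDHD1 had a log2 fold change of -0.48 with a limma adjusted p of 0.0864, CKS2 had -0.51 with 0.187 and FEN1 had -0.41 with 0.0722. In the authors' deposited table FEN1 and WDHD1 were called lower, at adjusted p of 0.029 and 0.0374, and CKS2 was not (0.061). The replicate block called FEN1, WDHD1 and CKS2 lower, at limma adjusted p of 0.00344, 0.00168 and 0.0397. Of 19 alternatives, 11 left FEN1 uncalled, 12 left WDHD1 uncalled and 17 left CKS2 uncalled. FAS fell with a log2 fold change of -0.61 (limma adjusted p = 0.0437), a call lost without any 1 of 4 libraries, replicates A and C of 72 h and A and B of 30 h. In each of these 4 genes and in CSF1, replicate C was the lowest library of both groups. Such distances describe 6 libraries in 2 groups and carry no test.

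**Figure D4:**
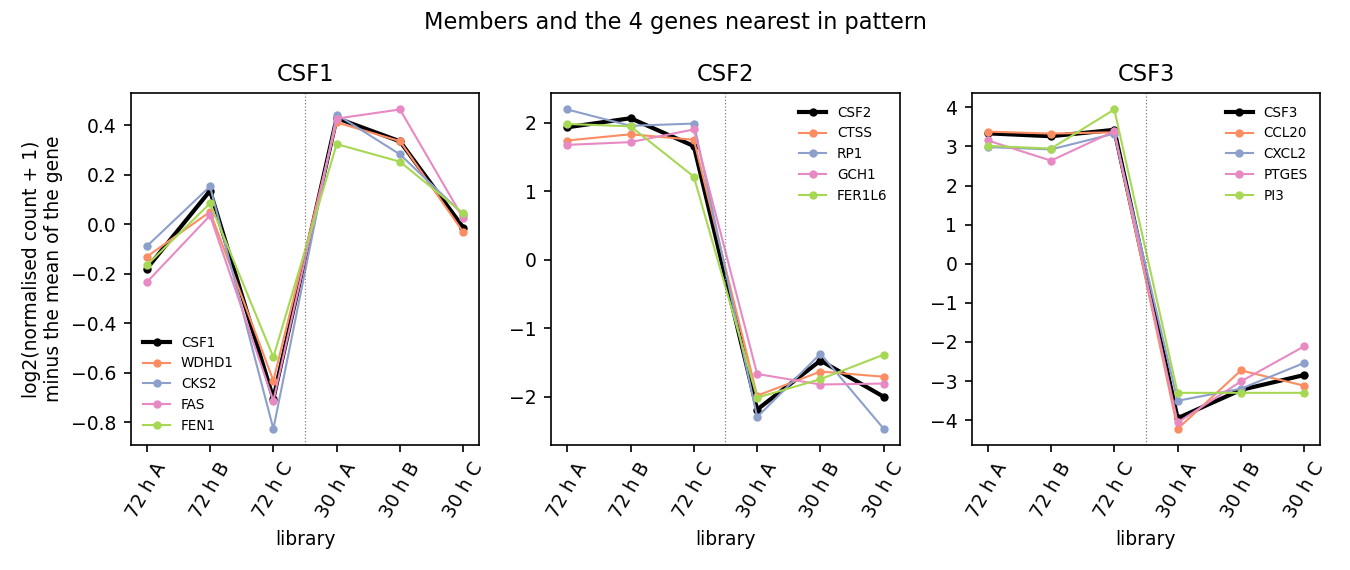
Log2(normalised count + 1) minus the gene's mean in each library, 72 h left of the dotted line and 30 h right of it, for each member (black) and the 4 genes nearest in pattern (colours). Lines join the values of 1 gene and imply no order of the libraries. CSF2 and CSF3 separate the groups, and CSF1 is low in replicate C of both.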

How the data were processed

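Per the submitters' processing notes, Trimmomatic 0.35, STAR 2.5.1b and DESeq2 1.18.1 were used with GRCh38 (hg38). The sources used here do not give the read counter, annotation or strand setting. Each gene and library has 1 signal value in the deposited table, the authors' read count after division by the library's size factor (called normalised count here). In each library 100% of the values above 0 were whole multiples, within 0.01, of the smallest value, which gave back whole reads. Per the file headers the authors also deposited a log2 fold change, a score (the Wald statistic) and a raw and an adjusted p-value. They serve as an alternative and are printed only with the authors' table named. No other column of per-sample values was left out (0).

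Values were compared as log2(value + 1) with limma 3.58.1 (trend and robust) in R 4.3.3 over the 13315 genes with at least 10 in at least 3 libraries, Benjamini-Hochberg adjusted with a threshold of 0.05. Fold changes are on that scale, which understates the change of low genes. Alternatives were edgeR 4.0.16 and DESeq2 1.42.0 on the recovered reads, other scalings, filters and pseudocounts, a replicate block and left-out libraries. edgeR called 3143 genes higher and 3340 lower, and limma 3144 and 3328. The steps were tested on simulated data with far fewer changed genes than were called here and no difference between replicate letters. No result here rests on that test. Replicates of a group differed beyond counting noise (chi-square per degree of freedom 3.34 to 16.3, against 110 to 161 between groups), so none was treated as a library deposited a second time, which does not show separate cultures. The counts do not separate PCR copies from molecules.

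The members, the related lists and the motifs were chosen with earlier results of these data known. Beside the members, the receptors and IL34, the text names from each list up to 4 called genes ranked by size of change, if the higher group's mean reached 50, the 4 genes nearest in pattern to each member, and neighbours that were called. A gene that this rule names in the signalling list is not reported here. Others named were chosen after their values were seen. Gene lengths, overlaps and 3' untranslated regions are from GENCODE 29, whose 55050 identifiers of the same version as in the table had the same coordinates. RefSeq promoters matched 1 of 3 members.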

Additional observations from a re-analysis of the deposited data

How the results depend on the processing

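CSF2 and CSF3 kept their direction and their call under all 19 alternatives, with log2 fold changes of 3.60 to 3.98 and 6.38 to 6.93. CSF1 stayed below 0 under all 19 and was called under 4 of them. These were no filter on low values (log2 fold change -0.50, limma adjusted p = 0.00117), no letter C in both groups (-0.40, 0.0108), the replicate block (-0.50, 0.00877) and no 72 h replicate B, within leave-one-out values of -0.69 to -0.27. The cause was not tested. The replicate letters were not taken as pairs, since the deviations of libraries of 1 letter correlated at 0.00696 (A), 0.172 (B) and 0.185 (C), and A stayed under 0.1, although KRT19 was high in replicate B of both groups. Replicate C also stood apart in both groups. These values do not show that libraries of 1 letter are unrelated, and a link by letter was not tested. edgeR on the recovered reads gave CSF1 -0.47 with adjusted p = 0.0836. Genes called higher numbered 3144, and 1732 without letter A and 1968 without letter B in both groups. Genes called lower numbered 3328, and 2040 without letter A. These fits hold fewer samples. Under the replicate block, and again without letter C, 1 gene of the blood growth factor list, KITLG, was called lower in place of 0, and without letter C (an alternative chosen after seeing the data) 5 AU-rich decay regulators were called lower in place of 3. The block moved no other list count by over 1.5 times. Of 42 called genes followed through the alternatives, 33 kept the call under every alternative in which they were fitted, which was 18 for CSF1R and 19 for the others. Of the uncalled neighbours, ORMDL3 kept its direction under all 19 alternatives and 4 others changed sign near 0: MED24 ran from -0.0572 to 0.0790 with 1 library left out and was -0.10 without letter B, PSMD3 ran from -0.00965 to 0.0343 and was -0.00526 without letter C, GSDMB ran from -0.14 to 0.0989 and was 0.0317 without letter B, and AHCYL1 was -0.00196 without letter A. The log2 ratios between members kept their direction under 7 alternatives. Low read numbers limit CSF1R, KIT, IL34 and CSF2RB.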
